A study of Mus musculus with 451 samples.

Results

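The genes examined here encode the machinery with which a cell takes a secreted protein into the endoplasmic reticulum (ER), folds it and sends it on to the Golgi. The set was a list of 60 genes, of which 59 had at least 100 reads over all cells and were compared, out of 10963 such genes among the 48795 in the table. Together the 60 genes held 386444 reads, 1.39% of all reads. The gene left out was Ppib, a cyclophilin of the collagen modification complex, with 49 reads (1.47 CPM in WT cells and 2.05 CPM in Mkx-/- cells, CPM being reads scaled to a library of 1000000). Of the exon bases of Ppib 54.2% are overlapped by Snx22 on the opposite strand, the strand used in counting is unknown, and its low count is therefore not read as a level. Just inside the limit lay Hyou1, at 4.40 and 5.30 CPM, and Sdf2l1, at 7.12 and 4.10 CPM.

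Secretory proteins enter the ER through the Sec61 channel, lose their signal peptide, gain N-linked sugars and are folded by chaperones and disulfide isomerases. Correctly folded cargo leaves in COPII-coated vesicles, while COPI coats and KDEL receptors bring ER residents back. Fibrillar procollagen, the main product of a tendon fibroblast, needs prolyl hydroxylases, prolyl isomerases and the chaperone HSP47 (Serpinh1) in addition, and is too long for a standard COPII vesicle. When unfolded protein builds up, ER stress sensors raise the synthesis of chaperones such as BiP (Hspa5).

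Single cells were taken from the tail tendons of 4-week-old mice of the C57BL/6 strain, either wild-type (WT) or Mkx-/-, to ask how tendon cells differ when Mkx, a tendon transcription factor, is lost and tendons ossify. Both genotypes were digested with collagenase, captured on a microfluidic chip and sequenced well by well, which gave 227 WT and 224 Mkx-/- cells. The sources used here do not state which part of Mkx is deleted, and the labels tie no cell to an animal or a chip. All cells of a genotype therefore counted as 1 sample, no p-value is given, and the animal, the chip and the genotype cannot be told apart.

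Cells were divided by the rule given with the gene list, as tenocyte-like where the mean of log2(CPM + 1) of Tnmd and Fmod was 10 or more and as other cells below it. This put 78 WT cells (34.4%, exact interval 28.2 to 40.9) and 84 Mkx-/- cells (37.5%, 31.1 to 44.2) in the tenocyte-like class, and 7 cells lay within 0.5 of the limit. The fibrillar collagen load, the percent of the reads of a cell in 9 fibrillar collagen genes, had a median of 26.7% in tenocyte-like and 2.64% in other WT cells, and of 17.9% and 3.0% in Mkx-/- cells. A list of 9 progenitor markers such as Cd34, Pdgfra and Ly6a summed to 5118 CPM in tenocyte-like and 23657 CPM in other WT cells, and to 6283 and 22734 CPM in Mkx-/- cells. The classes also differed in depth, with medians of 81693 and 41921 reads per cell in WT cells and of 72897 and 46389 in Mkx-/- cells, and in 7 genes known to respond to tissue dissociation, which summed to 2171 and 1017 CPM in WT cells and to 1718 and 1151 CPM in Mkx-/- cells. The part of depth and dissociation in the results was not tested. Depth ran from 13076 to 335813 reads per cell. Mkx itself stood at 33.8 CPM (30.8 to 37.1) in WT cells and 15.5 CPM (13.5 to 17.7) in Mkx-/- cells. One WT cell of the other class stood apart, with 0.0470% of its reads in the gene set against 0.448% in the next lowest cell and 45.9% of its reads in the predicted gene Gm10800.

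The secretory machinery did not move as a block between the classes. The 6 tested genes grouped here as collagen-directed folding were higher in tenocyte-like cells of both genotypes, whereas most general ER chaperones were lower in CPM. The median of these chaperones in Mkx-/- cells was level with the median gene (the plot of tenocyte-like against other cells). In all, 10 of the 59 genes were at least 1.5-fold higher in tenocyte-like cells of both genotypes, against 5.52% of all genes tested. Another 5 were at least 1.5-fold lower, against 29.1% of all genes. Collagen took a larger share of the reads of a tenocyte-like cell, and the ratio of the median gene was itself below 0, at -0.65 on the log2 scale in WT cells and -0.45 in Mkx-/- cells. The median over the set was -0.13 in WT cells and 0.02 in Mkx-/- cells. Measured from the median gene, 19 of the 59 genes were 1.5-fold higher in both genotypes, against 11.1% of all genes. None was 1.5-fold lower in both by that measure, against 11.7% of all genes. Above the median gene in both genotypes lay 43 of the 59, and below it in both lay 5. The same was not counted over all genes, so nothing is drawn from these 2 counts. The set is rich in well-expressed genes. Among genes with at least 1000 reads, 19.2% of 52 genes of the set were higher by the 1.5-fold rule against 4.27% of 4074 genes, and 5.77% were lower against 28.3%.

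**Figure D1:**
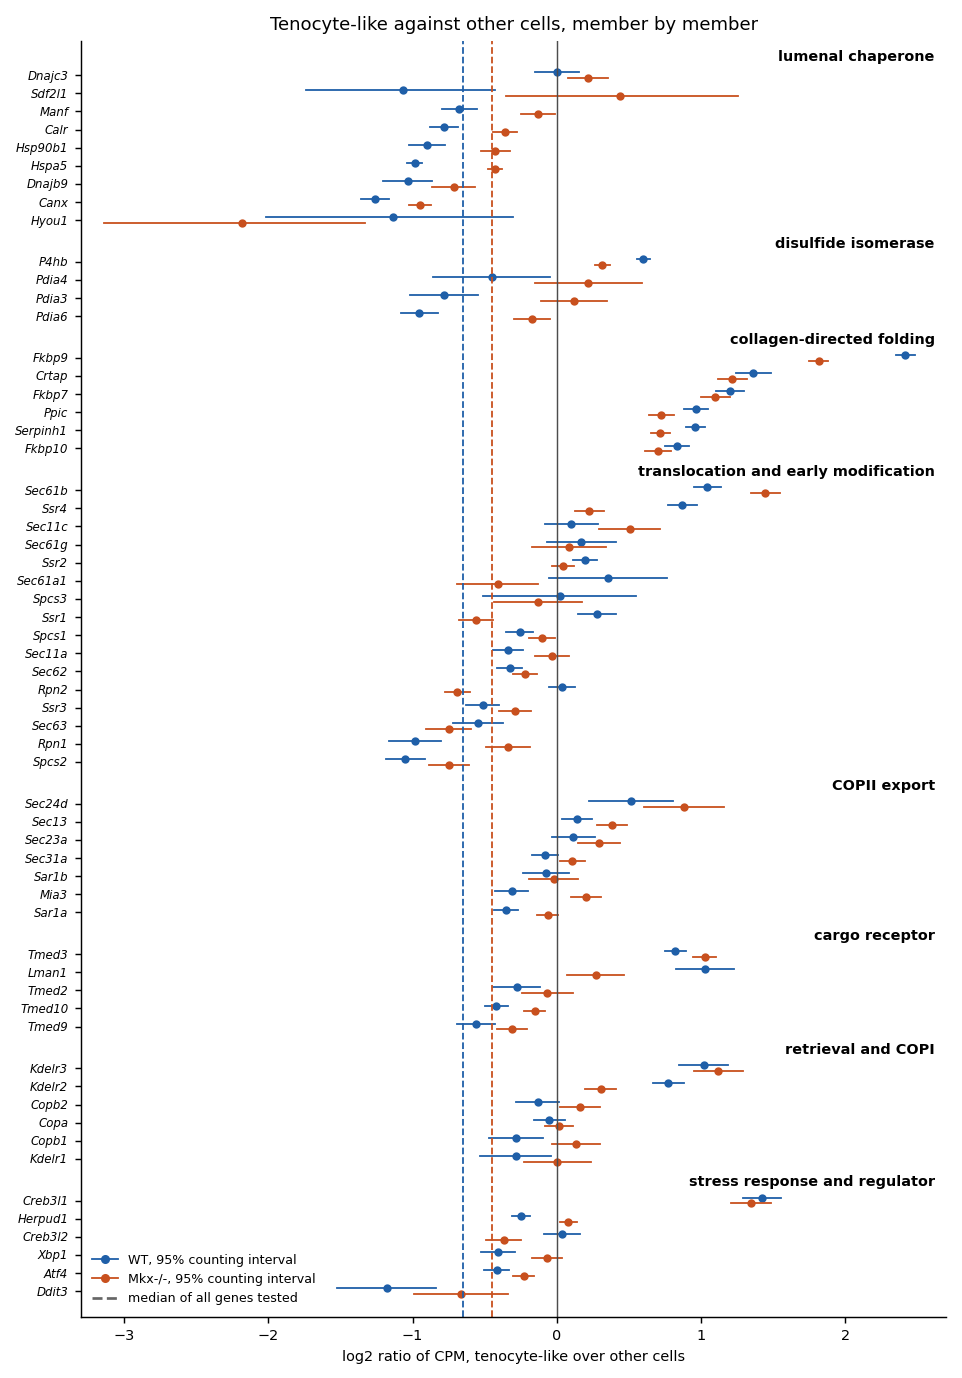
Log2 ratio of the summed-read CPM in tenocyte-like over other cells for each of the 59 genes, by role, in WT (blue) and Mkx-/- (orange) cells, with 95% intervals for counting error and a dashed line at the median of all genes tested for each genotype. All 6 collagen-directed folding genes lie to the right of 0 in both genotypes, and Hspa5, Hsp90b1, Calr, Canx and Dnajb9 lie to the left.

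The collagen-directed group separated the classes most clearly. All 6 of its tested genes were past 1.5-fold in both genotypes, and the group median was 1.08 in WT cells and 0.91 in Mkx-/- cells on the log2 scale. Fkbp9, which encodes an ER prolyl isomerase of the FKBP family, stood at 1851 CPM in tenocyte-like and 347 CPM in other WT cells, and at 1257 and 357 CPM in Mkx-/- cells. Its log2 ratio was 2.42 (2.35 to 2.48) in WT cells and 1.81 (1.75 to 1.88) in Mkx-/- cells, the highest of the 59 genes in both. Cell by cell, Fkbp9 had a median of 1760 CPM in tenocyte-like WT cells (lowest 41.6, highest 4675) and of 228 CPM in other WT cells (lowest 0, highest 1811). The ranges overlapped, but the medians lay far apart.

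Serpinh1 encodes HSP47, which binds the folded procollagen triple helix. It stood at 785 CPM in tenocyte-like and 404 CPM in other WT cells, a log2 ratio of 0.96 (0.89 to 1.03), and at 693 and 421 CPM in Mkx-/- cells, a ratio of 0.72 (0.65 to 0.78). Fkbp10, whose product FKBP65 is a further procollagen chaperone, had log2 ratios of 0.83 (0.75 to 0.91) and 0.70 (0.61 to 0.79), from 485 against 273 CPM in WT cells and 364 against 224 CPM in Mkx-/- cells. The related isomerase Fkbp7 stood at 413 against 180.1 CPM and at 381 against 177.8 CPM, ratios of 1.198 (1.10 to 1.29) and 1.10 (1.001 to 1.197). Ppic, a cyclophilin of the secretory pathway, had ratios of 0.96 (0.88 to 1.04) and 0.72 (0.64 to 0.81), from 536 against 275 CPM and from 397 against 240.2 CPM. Crtap belongs to the complex that 3-hydroxylates collagen prolines. It was at 283 against 110.3 CPM in WT cells and at 362 against 155.5 CPM in Mkx-/- cells, ratios of 1.36 (1.24 to 1.48) and 1.22 (1.11 to 1.32), and was found in 91% of tenocyte-like and 43.6% of other WT cells. The difference between classes was thus seen in every tested gene of the group. The ratio was smaller in Mkx-/- than in WT cells for each of the 6, also when measured from the median gene. Counting intervals of the CPM ratios overlapped between genotypes for Fkbp10, Fkbp7 and Crtap, and the comparison was not tested. Ppib, with its 49 reads, was not compared.

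The lumenal chaperones went the other way on the CPM scale. Their median ratio was -0.99 in WT cells and -0.43 in Mkx-/- cells, or -0.34 and 0.03 measured from the median gene, and none of the 9 was 1.5-fold higher in tenocyte-like cells. Hspa5 (BiP), the principal ER Hsp70, stood at 635 CPM in tenocyte-like and 1258 CPM in other WT cells, and at 943 and 1270.1 CPM in Mkx-/- cells. Its ratio was -0.99 (-1.04 to -0.93) in WT cells and -0.43 (-0.48 to -0.38) in Mkx-/- cells. Measured from the median gene this is -0.34 in WT cells and 0.02 in Mkx-/- cells, so that Hspa5 was below the median gene only in WT. Cell by cell its median was 589.7 CPM in tenocyte-like WT cells (0 to 2040) against 1089 CPM in other WT cells (0 to 4655), and 838 against 1104 CPM in Mkx-/- cells, with ranges that overlapped widely.

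Canx, the membrane-bound lectin chaperone of the calnexin cycle, was at 186.7 against 447 CPM in WT cells and 283 against 546 CPM in Mkx-/- cells, ratios of -1.26 (-1.36 to -1.16) and -0.95 (-1.03 to -0.87). It was below the median gene in both genotypes, at -0.61 and -0.50 from it. Calr, its soluble counterpart, had ratios of -0.78 (-0.88 to -0.69) and -0.36 (-0.44 to -0.28), and Hsp90b1 (GRP94), the ER Hsp90, of -0.90 (-1.02 to -0.78) and -0.43 (-0.53 to -0.33). Both were past 1.5-fold in WT but not in Mkx-/- cells. Dnajb9, a BiP co-chaperone, was lower in both, at 63.6 against 130.1 CPM in WT cells and 81.1 against 133.3 CPM in Mkx-/- cells, ratios of -1.03 (-1.20 to -0.86) and -0.72 (-0.87 to -0.57). Hyou1, a nucleotide exchange factor of BiP, was also lower in both, with ratios of -1.13 (-2.02 to -0.31) and -2.19 (-3.14 to -1.33), but it rested on 2.72 against 5.98 CPM and 1.94 against 8.82 CPM, and 1 cell gave 23.8% to 38.9% of its reads in each of the 4 groups of cells. Manf had ratios of -0.68 and -0.13, Sdf2l1 of -1.07 and 0.44, and Dnajc3, another BiP co-chaperone, of 0.00 and 0.21. Relative to the median gene, Dnajc3 was past 1.5-fold higher in both genotypes and was the only lumenal chaperone to be so.

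Among the disulfide isomerases, P4hb differed from the rest. P4hb is a disulfide isomerase and also the beta subunit of collagen prolyl 4-hydroxylase. It stood at 1327 against 876 CPM in WT cells and at 1042 against 837 CPM in Mkx-/- cells, ratios of 0.60 (0.55 to 0.65) and 0.32 (0.27 to 0.37). The general isomerases had ratios below 0 in WT, of -0.78 for Pdia3, -0.95 for Pdia6 and -0.45 for Pdia4. In Mkx-/- cells these were 0.12, -0.17 and 0.22, none of them past 1.5-fold.

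The promoters of several chaperone and isomerase genes hold a known sequence of the unfolded protein response, and these windows are shown so that the genes described above can be seen with it. The ER stress response element (ERSE), known to be bound by NF-Y and ATF6, has the letters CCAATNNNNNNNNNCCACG. It was searched on both strands in RefSeq promoters (GRCm38.p6) from 250 bases before to 50 bases after the start of each gene. Of 60 genes 48 had a promoter in that table. The element was found in 6 of them, Hspa5, Hsp90b1, Calr, Canx, Dnajc3 and Pdia6, against 0.119% of all 32851 promoters. The windows below run 5′ to 3′ along the strand of the gene, and the capitals mark the ends of the element, CCAAT and CCACG, or ATTGG and CGTGG where it lies on the opposite strand. The element ended 47 bases before the start in Hspa5, 87 in Dnajc3 and 80 in Pdia6. Hsp90b1 held it on both strands, and the copy nearer to the start ended 89 bases before it.
Hspa5 (chr2:34772010-34772058, plus strand): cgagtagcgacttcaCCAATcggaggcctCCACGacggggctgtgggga
Canx (chr11:50325785-50325833, minus strand): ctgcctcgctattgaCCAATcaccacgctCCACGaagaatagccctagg
Dnajc3 (chr14:118937812-118937860, plus strand): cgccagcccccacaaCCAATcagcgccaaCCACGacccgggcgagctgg
Pdia6 (chr12:17266476-17266524, plus strand): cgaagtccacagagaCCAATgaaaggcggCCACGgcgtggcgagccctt
Hsp90b1 (chr10:86705518-86705671, minus strand): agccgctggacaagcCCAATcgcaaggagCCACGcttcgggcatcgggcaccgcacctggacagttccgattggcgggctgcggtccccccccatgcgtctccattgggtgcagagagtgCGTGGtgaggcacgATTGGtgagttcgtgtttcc

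The class ratios of these 6 genes ran from -1.26 (Canx) to 0.00 (Dnajc3) in WT cells and from -0.95 (Canx) to 0.21 (Dnajc3) in Mkx-/- cells. A shorter element known to be bound by ATF6 and XBP1, TGACGTGG, was in 0.676% of all promoters and in 5 of the 48, Sec24d, Kdelr3, Copb1, Copb2 and Sec23a. Its reverse complement holds CCACG, so a match can overlap that end of an ERSE. The windows of Sec24d and Kdelr3, both relatively high in tenocyte-like cells, and of the COPI subunit gene Copb1 are given with the element in capitals, which ended 19, 23 and 21 bases before the start.
Sec24d (chr3:123267455-123267492, plus strand): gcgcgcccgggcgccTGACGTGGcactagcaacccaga
Kdelr3 (chr15:79516363-79516400, plus strand): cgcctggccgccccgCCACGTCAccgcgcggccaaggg
Copb1 (chr7:114254686-114254723, minus strand): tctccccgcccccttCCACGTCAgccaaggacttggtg

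TTGCATCA, a letter pattern of ATF4 and CHOP sites, was in 0.895% of all promoters and in Herpud1 alone among the 48. TGACGTCA, the cyclic AMP response element, was in 1.79% of all promoters and in 0 of the 48. Each ERSE end is common by itself, CCAAT in 37.4% and CCACG in 32.8% of all promoters. A match describes letters in these windows, and nothing is drawn from it about binding.

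The translocation and early modification genes were mixed, with group medians of 0.03 in WT cells and -0.18 in Mkx-/- cells. Sec61b, a small subunit of the Sec61 channel, was the one past 1.5-fold higher in both genotypes. It stood at 404 against 196.02 CPM in WT cells and at 420.4 against 154.5 CPM in Mkx-/- cells, ratios of 1.04 (0.95 to 1.14) and 1.44 (1.34 to 1.55). The large channel subunit Sec61a1 did not share that pattern, with ratios of 0.35 (-0.05 to 0.76) and -0.41 (-0.69 to -0.13), and Sec61g had 0.17 and 0.08. Spcs2, of the signal peptidase complex, was lower in both, at 99.01 against 204.98 CPM and 96.2 against 161.6 CPM, ratios of -1.05 (-1.19 to -0.92) and -0.75 (-0.89 to -0.61). The other signal peptidase genes lay between -0.34 (Sec11a, WT) and 0.50 (Sec11c, Mkx-/-).

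Ssr4, of the translocon-associated TRAP complex, had ratios of 0.87 (0.77 to 0.97) and 0.22 (0.12 to 0.32). Its partners differed in direction, with Ssr1 at 0.28 and -0.56, Ssr2 at 0.19 and 0.04 and Ssr3 at -0.52 and -0.29. The oligosaccharyltransferase genes also differed, with Rpn1 at -0.98 (-1.16 to -0.81) and -0.34 (-0.49 to -0.19) and Rpn2 at 0.03 (-0.06 to 0.12) and -0.69 (-0.78 to -0.60). Sec62 and Sec63, which assist post-translational entry, were below 0 in both genotypes, at -0.33 and -0.22 and at -0.55 and -0.75. Subunits of one complex thus did not share a ratio.

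In the vesicle machinery, single genes stood out from groups near 0. The COPII genes had medians of -0.07 in WT cells and 0.20 in Mkx-/- cells, and none of the 7 was past 1.5-fold in both. Sec24d, a cargo-binding COPII subunit known from skeletal defects of collagen secretion, had the highest ratios of the group, 0.51 (0.22 to 0.80) and 0.88 (0.60 to 1.16), from 35.1 against 24.6 CPM and 44.1 against 23.99 CPM. Measured from the median gene, Sec24d, Sec23a and Sec13 were past 1.5-fold in both genotypes. Mia3 (TANGO1), which loads bulky procollagen at ER exit sites, had ratios of -0.31 (-0.43 to -0.20) and 0.20 (0.10 to 0.31), and Sar1a, Sar1b and Sec31a lay between -0.35 and 0.11.

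The cargo receptor Tmed3, of the p24 family, was past 1.5-fold higher in both, at 619 against 351 CPM in WT cells and 584 against 287 CPM in Mkx-/- cells, ratios of 0.82 (0.75 to 0.89) and 1.02 (0.95 to 1.10). The p24 genes Tmed2, Tmed9 and Tmed10 were below 0 in both genotypes, from -0.56 to -0.07. Lman1 (ERGIC-53), a lectin receptor of glycoproteins, had 1.02 (0.83 to 1.22) in WT cells and 0.27 (0.07 to 0.47) in Mkx-/- cells. Among the retrieval genes Kdelr3 was past 1.5-fold higher in both, at 126.1 against 62.3 CPM and 125.2 against 57.7 CPM, ratios of 1.02 (0.85 to 1.19) and 1.12 (0.95 to 1.29). Its paralogs encode receptors of the same KDEL signal. Kdelr2 had 0.77 (0.66 to 0.88) and 0.30 (0.20 to 0.41) and Kdelr1 had -0.29 and 0.00. The COPI coat genes Copa, Copb1 and Copb2 lay between -0.28 and 0.16.

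Of the stress sensors and regulators, Creb3l1 (OASIS) was higher and Ddit3 (CHOP) lower on the CPM scale in tenocyte-like cells of both genotypes. Creb3l1 is an ER-anchored transcription factor known to drive Col1a1 in bone. It stood at 254 against 94.8 CPM in WT cells and 212.97 against 83.97 CPM in Mkx-/- cells, ratios of 1.42 (1.29 to 1.55) and 1.34 (1.204 to 1.48). It was found in 96.2% of tenocyte-like and 53% of other WT cells and in 95.2% and 57.1% of Mkx-/- cells, at unequal depth. Its paralog Creb3l2 had ratios of 0.03 and -0.37. Ddit3, the transcription factor of prolonged ER stress, was at 15.4 against 34.9 CPM and 18.3 against 28.9 CPM, ratios of -1.18 (-1.52 to -0.84) and -0.66 (-0.99 to -0.34). Measured from the median gene, Ddit3 stood at -0.53 in WT and -0.21 in Mkx-/- cells, short of 1.5-fold in both. Xbp1, Atf4 and Herpud1, targets or effectors of the unfolded protein response, lay between -0.42 and 0.08.

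The level of these genes was next set beside the collagen load of each cell. Because collagen reads lower the share of all other genes, levels are here CPM of the reads outside the 9 fibrillar collagen genes, and Spearman's rho is given across cells as a description, with no p. Over all cells of a genotype, 11 of the 59 genes reached a rho of 0.3 in both genotypes, against 1.2% of all genes. These were the 10 genes higher in tenocyte-like cells and P4hb. None had a rho of -0.3 or lower in both, against 0.50% of all genes, so this count is near the share of all genes. Among genes with at least 5000 reads the share was 30% of 30 genes of the set against 8.16% of 870 genes. With CPM of all reads in place of those outside collagen, 7 genes kept a rho of 0.3 in both genotypes, Fkbp9, Fkbp7, Ppic, Crtap, Tmed3, Kdelr3 and Creb3l1.

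**Figure D2:**
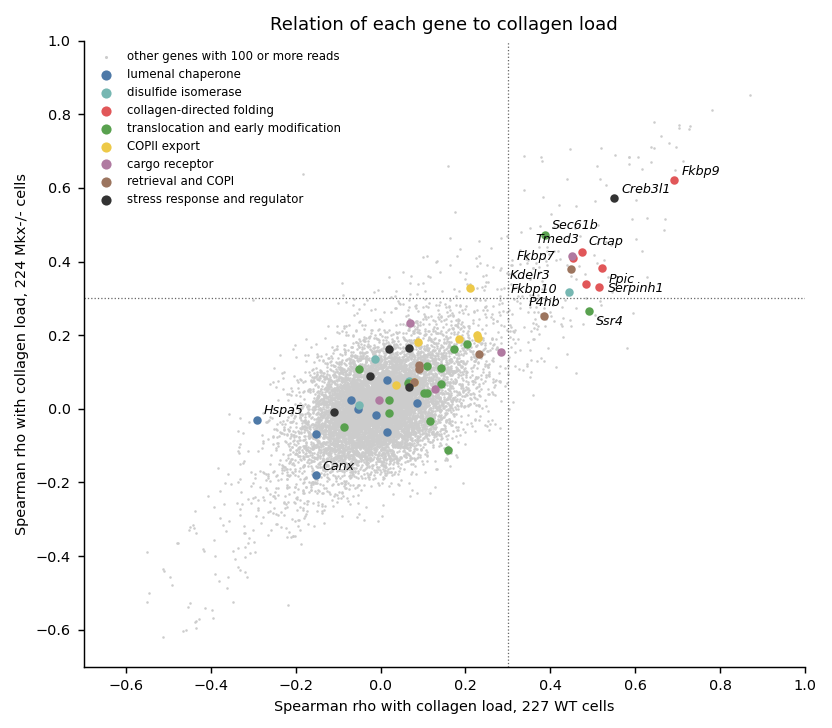
Spearman rho between the level of a gene and the collagen load across 227 WT cells (x axis) and 224 Mkx-/- cells (y axis), with the 59 genes coloured by role over all other genes with 100 or more reads (grey) and dotted lines at 0.3. Fkbp9 and Creb3l1 lie farthest to the upper right and Hspa5 and Canx lie below 0 on both axes.

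Load and class are nearly the same division of the cells, so the relation within tenocyte-like cells is the narrower measure. Fkbp9 had the highest mean rho, 0.69 in WT cells and 0.62 in Mkx-/- cells, and kept 0.61 and 0.56 within tenocyte-like cells, against 0.22 and 0.10 within other cells. Creb3l1 had 0.55 and 0.57 over all cells and 0.35 and 0.43 within tenocyte-like cells. Ppic had 0.52 and 0.38 over all cells and 0.36 and 0.17 within the class, and Crtap had 0.47 and 0.43 over all cells and 0.35 and 0.31 within it. The 4 genes at the other end were weak. Canx had -0.15 and -0.18, Hspa5 -0.29 and -0.03, Dnajb9 -0.15 and -0.07 and Spcs2 -0.09 and -0.05 in WT and Mkx-/- cells.

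Summed over the collagen-directed genes the rho was 0.74 in WT cells and 0.70 in Mkx-/- cells, and 0.69 and 0.52 within tenocyte-like cells. Gene by gene it was weaker, with a median within tenocyte-like cells of 0.35 over the 6 tested genes in WT and of 0.18 in Mkx-/- cells, where Fkbp9 had 0.56 and Fkbp7 0.07. For the summed lumenal chaperones it was -0.28 and -0.13, and -0.14 and -0.03 within tenocyte-like cells. The sum of the whole set had 0.61 and 0.57 over all cells and 0.58 and 0.47 within tenocyte-like cells. Without the collagen-directed genes that sum still had 0.31 and 0.32 within tenocyte-like cells. Within other cells, where the load stayed low, the sum of the whole set had 0.14 in both genotypes. Depth moved with both measures, with a rho of 0.42 and 0.41 between depth and load and of 0.48 and 0.25 between depth and the sum of the set. With every cell thinned to 13000 reads the sum had 0.59 and 0.55 over all cells, and 9 of the 11 genes still reached 0.3 in both genotypes, without P4hb (0.27 in Mkx-/- cells) and Fkbp10 (0.299).

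**Figure D3:**
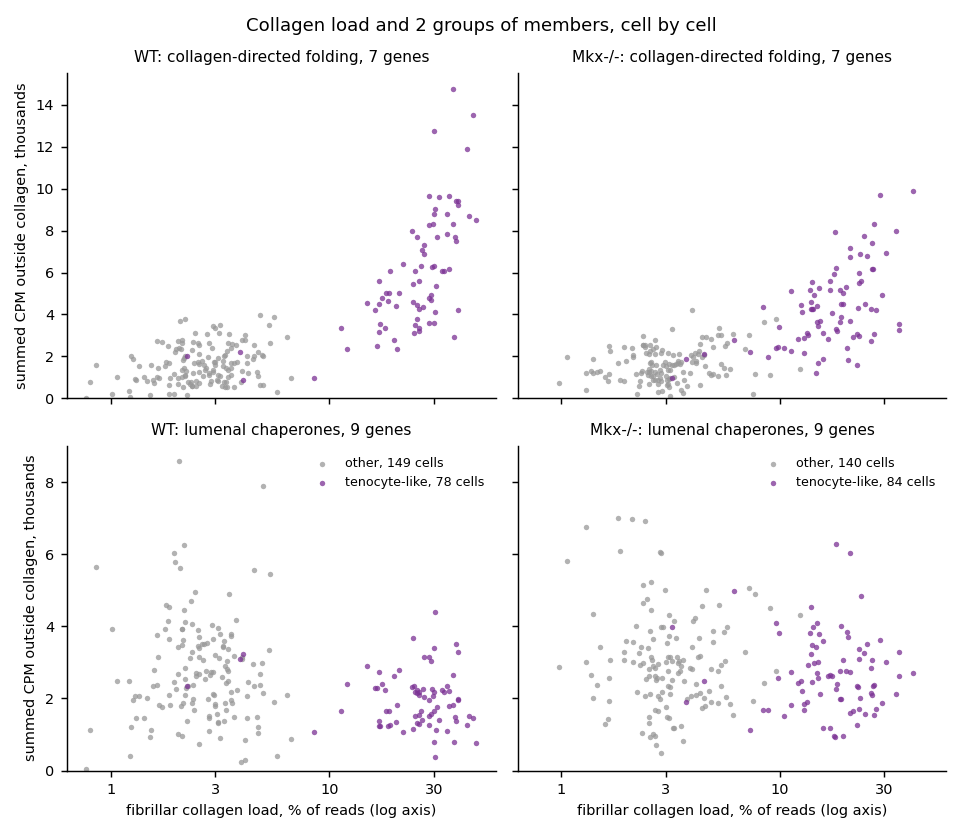
Each point is a cell, with its fibrillar collagen load in percent of reads (log x axis) and the summed CPM outside collagen of the collagen-directed folding genes (upper panels) or the lumenal chaperones (lower panels) for WT and Mkx-/- cells, coloured by class. The collagen-directed sum is higher in cells of higher load within the tenocyte-like class, whereas the chaperone sum has no such slope.

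Tenocyte-like cells of each genotype were also ordered by load and pooled in 3 groups of equal size. In the 26 WT cells of each group, with median loads of 17.2%, 26.7% and 35.9%, the collagen-directed genes summed to 4062, 5984 and 8351 CPM outside collagen. In the 28 Mkx-/- cells of each group, with median loads of 12.3%, 17.9% and 26.1%, they summed to 3284, 4211 and 5309 CPM. Fkbp9 followed the same order in both genotypes, at 1624, 2449 and 3794 CPM in WT cells and 867, 1553 and 2247 CPM in Mkx-/- cells. It weighed heavily in the sum, with 5284 of the 11631 reads of the collagen-directed genes in the WT group of highest load. The other genes of the group were less regular in Mkx-/- cells, where Fkbp7 had 495, 419 and 498 CPM and Ppic had 461, 429 and 583 CPM.

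Creb3l1 stood at 207.1, 412 and 454 CPM in WT cells and at 177.9, 197.7 and 421 CPM in Mkx-/- cells. Serpinh1 stood at 698, 1206 and 1403 CPM in WT, but at 733, 923 and 901 CPM in Mkx-/- cells, where the middle and upper groups were level. The lumenal chaperones had no order by load, at 1916, 2138 and 1846 CPM in WT cells and at 2593, 2736 and 2482 CPM in Mkx-/- cells. The 7 dissociation genes also differed between the groups, at 2272, 2624 and 4249 CPM in WT and at 1952, 1840 and 2595 CPM in Mkx-/- cells. Their rho with load within the tenocyte-like class was 0.35 for WT and -0.01 for Mkx-/- tendons, and their part in the relation to load was not tested. The median load of the lowest WT group (17.2%) was near that of the middle Mkx-/- group (17.9%), a pair chosen after the values were seen. There the collagen-directed genes stood at 4062 CPM in WT cells and 4211 CPM in Mkx-/- cells, while the chaperones stood at 1916 and 2736 CPM. The near-equal collagen-directed sums hid differences of single genes. Crtap (235 and 463 CPM), Serpinh1 and Fkbp7 were higher in the Mkx-/- group. Fkbp10 (544 and 421 CPM), Ppic and Fkbp9 were lower in it. The groups were near in median load only, with loads from 2.24% to 24.04% in the WT group and from 14.7% to 20.9% in the Mkx-/- group.

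**Figure D4:**
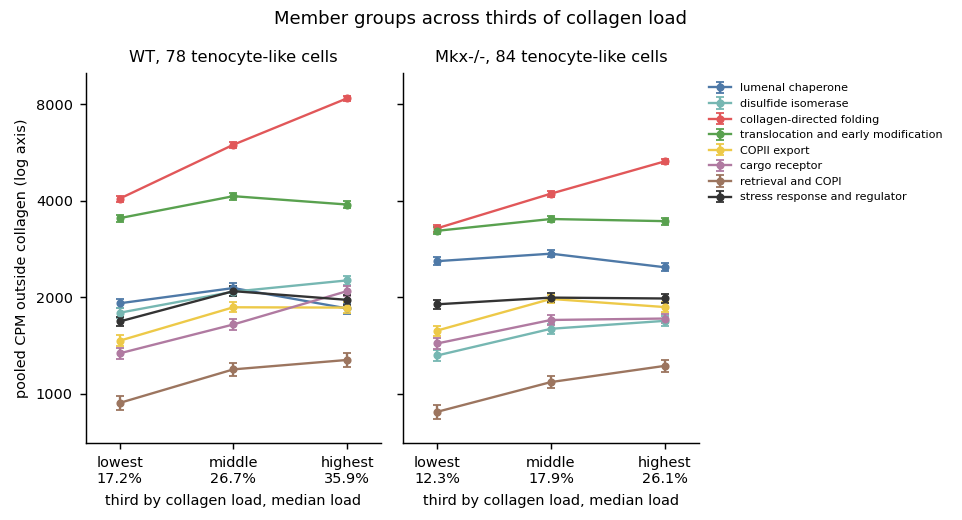
Pooled CPM outside collagen (log axis) of each role in tenocyte-like cells ordered by collagen load into 3 equal groups, labelled with the median load, for WT (left) and Mkx-/- (right), with 95% counting intervals. The collagen-directed line climbs from 4062 to 8351 CPM in WT cells and from 3284 to 5309 CPM in Mkx-/- cells, and the chaperone line has no such climb.

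Between genotypes the set as a whole was level with other genes. Over the 59 genes the Mkx-/- to WT log2 ratio had a median of 0.07 over all cells, 0.17 in tenocyte-like and -0.01 in other cells, against 0.05, 0.19 and 0.01 for all genes. Over all cells 2 genes were at least 1.5-fold higher in Mkx-/- cells (16% of all genes) and 1 was 1.5-fold lower (13.1% of all genes). Within tenocyte-like cells 7 were higher (29.9% of all genes) and 0 were lower (18.3%). Within other cells 3 were higher (18.6%) and 2 were lower (17.2%). Each of these shares of the 59 genes was below that of all genes. At least 1000 reads were held by 52 of the 59 genes and by 4074 of the 10963.

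**Figure D5:**
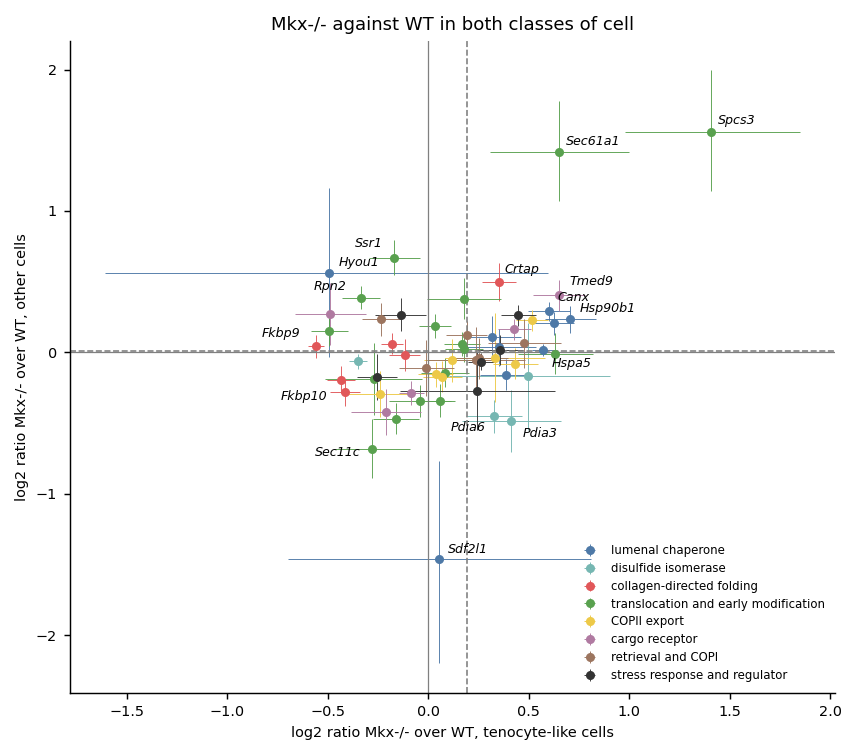
Log2 ratio of Mkx-/- to WT for each of the 59 genes in tenocyte-like cells (x axis) and in other cells (y axis), coloured by role, with 95% counting intervals and dashed lines at the median of all genes tested. Spcs3 and Sec61a1 are above 0 on both axes, the collagen-directed genes Fkbp9 and Fkbp10 lie to the left and Hspa5, Hsp90b1, Calr and Canx to the right.

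Within tenocyte-like cells the roles lay in different places. The lumenal chaperones had a median of 0.39 and the disulfide isomerases of 0.37, both above the median gene, and the collagen-directed genes had a median of -0.30. Of the 4 disulfide isomerases 3 were above 0, but P4hb, which held most reads of that group, was at -0.35. Hspa5 was at 635 CPM in WT cells and 943 CPM in Mkx-/- tenocyte-like cells, a log2 ratio of 0.57 (0.51 to 0.63), and at 1258 and 1270.1 CPM in other cells, a ratio of 0.01 (-0.03 to 0.06). The 7 genes past 1.5-fold in tenocyte-like cells included Hsp90b1 at 0.71 (0.58 to 0.83), Calr at 0.63 (0.53 to 0.73) and Canx at 0.60 (0.50 to 0.70). The rest were Rpn1, a subunit of the oligosaccharyltransferase, at 0.63, Tmed9 at 0.65, Sec61a1 and Spcs3. The collagen load of these cells was lower in Mkx-/- (17.9% against 26.7%), and the share of reads it leaves to other genes was larger. With CPM of the reads outside collagen the ratios became 0.43 for Hspa5, 0.56 for Hsp90b1, 0.48 for Calr and 0.45 for Canx, so the direction held, but Hsp90b1, Calr and Canx were no longer past 1.5-fold. Measured from the median gene they stood at 0.51, 0.44 and 0.41, also short of it.

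Among the collagen-directed genes the tenocyte-like ratio was lowest for Fkbp9, at -0.56 (-0.60 to -0.52), from 1851 CPM in WT to 1257 CPM in Mkx-/- cells, beside 0.04 (-0.04 to 0.12) in other cells. Fkbp10 was at -0.41 (-0.49 to -0.34) and -0.28 (-0.38 to -0.19) in the same classes, Ppic at -0.43 and -0.19, Serpinh1 at -0.18 and 0.06 and Fkbp7 at -0.12 and -0.02. Crtap alone of the group was above 0, at 0.35 (0.26 to 0.44) and 0.50 (0.36 to 0.63). Measured from the median gene, the tenocyte-like ratio was -0.75 for Fkbp9, -0.63 for Ppic and -0.60 for Fkbp10, each past 1.5-fold lower. Serpinh1, Fkbp7 and Crtap were short of that limit. The Fkbp9 ratio over all cells, -0.40 (-0.43 to -0.36), was -0.02 when cells scoring 8 to 12 on the tenocyte score were left out, and within tenocyte-like cells it was then -0.44.

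Over all cells the highest ratios were those of Spcs3, Sec61a1, Tmed9 and Crtap. Spcs3, a signal peptidase subunit, stood at 9.23 CPM in tenocyte-like and 9.11 CPM in other WT cells and at 24.5 and 26.9 CPM in Mkx-/- cells, a ratio over all cells of 1.48 (1.19 to 1.79). Sec61a1 stood at 17.1 and 13.4 CPM in WT cells and 26.8 and 35.7 CPM in Mkx-/- cells, a ratio of 1.04 (0.80 to 1.28). Both were low genes found in few cells. Spcs3 had a read in 15.4% to 28.6% of the cells of a class and genotype, and 1 cell gave up to 24.2% of its reads there. Sec61a1 had a read in 5.37% to 17.9% of cells, and 1 cell gave up to 37.2% of its reads. Tmed9, a p24 cargo receptor, had 0.50 (0.41 to 0.58) and Crtap 0.42 (0.35 to 0.50).

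The lowest ratios over all cells were those of Sdf2l1, Sec11c, Fkbp9 and Fkbp10. Sdf2l1, a lumenal cofactor of chaperones, had -0.80 (-1.29 to -0.31), with 0.05 (-0.70 to 0.81) in tenocyte-like and -1.46 (-2.20 to -0.77) in other cells. Its level lay between 3.47 and 9.54 CPM in the 4 groups of cells. Sec11c, a catalytic signal peptidase subunit, had -0.45 (-0.59 to -0.31) and was -0.07 after thinning. Fkbp10 had -0.34 (-0.40 to -0.29).

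Pdia3, Pdia6 and Rpn2 had genotype ratios of opposite sign in the 2 classes. Pdia3, the isomerase that works with calnexin and calreticulin, stood at 35.4 CPM in WT cells and 47.2 CPM in Mkx-/- tenocyte-like cells, a ratio of 0.41 (0.17 to 0.66), and at 60.9 and 43.5 CPM in other cells, a ratio of -0.49 (-0.70 to -0.27). Without cells scoring 8 to 12 its ratio in tenocyte-like cells was -0.34. Pdia6 had 0.33 (0.19 to 0.47) and -0.45 (-0.57 to -0.34), from 108.999 and 136.7 CPM in tenocyte-like and 211.1 and 154.2 CPM in other cells of WT and Mkx-/- tendons. Rpn2 had -0.34 (-0.43 to -0.24) and 0.39 (0.30 to 0.47), from 301 and 238 CPM and from 294 and 385 CPM. Measured from the median gene, the tenocyte-like ratios were smaller for Pdia3 (0.22) and Pdia6 (0.13) and larger in size for Rpn2 (-0.53). The intervals cover counting error only, and with 1 sample per genotype the difference between classes was not tested.

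A wider list of 93 further genes of the same pathways, of which 90 had at least 100 reads, was compared by the same rules. In that list 4 genes were 1.5-fold higher in tenocyte-like cells of both genotypes (Fkbp14, Rcn3, Copz2 and Fkbp11) and 15 were lower, which is 4.44% and 16.7% of the list against 5.52% and 29.1% of all genes, with medians of -0.31 in WT cells and -0.12 in Mkx-/- cells. The 20 stress and degradation genes had medians of -0.61 and -0.57, near the -0.65 and -0.45 of all genes, and 7 of them were lower and 0 higher. The 19 targeting and glycosylation genes had medians of -0.08 and -0.02, with 0 past the limit either way. The 24 folding genes had medians of -0.12 and -0.11, and the 27 COPII and COPI genes of -0.29 and -0.05.

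Of the genes past 2-fold in both genotypes, Fkbp11, a further FKBP isomerase, stood at 115.4 against 52.7 CPM in WT cells and 131.2 against 26.01 CPM in Mkx-/- cells, ratios of 1.13 and 2.33. Copz2, a COPI subunit, stood at 492 against 216.5 CPM and 325 against 151.9 CPM, ratios of 1.18 and 1.10. Lower were Edem2, which trims glycans for ER-associated degradation, at -2.10 and -2.81, Sec23b, the paralog of the COPII coat gene Sec23a, at -1.28 and -1.21, and Mbtps2, the protease that releases ATF6, at -1.05 and -1.81. Klhl12, the ubiquitin ligase adaptor known to enlarge COPII coats for procollagen, was lower as well, at 9.84 against 33.5 CPM in WT cells and 17.02 against 52.3 CPM in Mkx-/- cells, ratios of -1.77 and -1.62. Rcn3 and Copz2 reached a rho of 0.3 with collagen load in both genotypes.

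Some counts could hold reads of other genes. Of 58 genes of the set whose last 500 transcript bases were searched, 4 had near-identical copies elsewhere in the genome, Crtap, Sec61b, Spcs1 and Tmed2. In the GENCODE M1 annotation, which held 59 of the 60 genes, Ppib among them, exons of the opposite strand overlapped 15 genes, 3 of them over more than 10% of their exon bases. These were Ppib at 54.2%, Spcs1 at 17.9% and Hsp90b1 at 10.3%. The strand used in counting is not given in the sources used here, so such reads may have gone to either gene or to neither.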

How the data were processed

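The authors deposited raw counts of reads per gene and cell. According to the study's methods, reads were filtered with AfterQC, trimmed at the 3′ end, mapped with bowtie2 and assigned with featureCounts, with versions not given in the sources used here. The labels name mm10 and the methods mm9, so no gene coordinates are given beside the RefSeq promoter windows (GRCm38.p6). Neither strand nor the handling of reads with several positions is stated. These are reads and not unique molecules. Intervals of levels and ratios treat each read as independent, so they cover the counting error of reads only. They cover neither the counting of molecules nor the spread between cells.

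No cell was removed and no doublet caller was run, since the submitters left out wells with no cell or several cells. The highest correlation between 2 cells was 0.595, so none was taken as a copy. Counts were summed over the cells of a class and genotype and divided by their summed reads (CPM). Sums have exact Poisson intervals, ratios exact conditional binomial intervals and shares Clopper-Pearson intervals, all at 95%. Genes with at least 100 reads were compared. With 1 sample per genotype no test was made, and 1.5-fold in both genotypes was the reporting limit. Full values are given for genes past that limit between classes, the 4 highest and 4 lowest genotype ratios and collagen relations, genes whose genotype ratio passed 1.25-fold in opposite directions in the classes, and up to 6 other pathway genes past 2-fold. Other genes are given by role, and those past 1.5-fold between genotypes within a class are named in addition. The members, roles and lists were chosen with earlier results of these data known.

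Alternatives were a class limit of 9 or 11, leaving out cells scoring 8 to 12 or with 5000 or more genes, thinning to 13000 reads, mean per-cell CPM, median-of-ratios scaling, reads outside collagen, minimums of 1000 reads or none, and leaving out the leading cell of a gene. The scripts were tested on simulated data. Python 3.11.15, numpy 2.4.6, pandas 2.3.3, scipy 1.17.1, matplotlib 3.10.9 and, for genomic copies (95% identity over 60% of bases), minimap2 2.31-r1302 were used.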

Additional observations from a re-analysis of the deposited data

Results flagged for a closer look

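Pdia3, Pdia6 and Rpn2 stood out because the log2 ratio of Mkx-/- to WT had opposite signs in tenocyte-like and other cells, with both counting intervals off 0. The ratio in tenocyte-like cells minus that in other cells was 0.90 for Pdia3, 0.78 for Pdia6 and -0.72 for Rpn2. None of these differences was tested, since each genotype was 1 sample. For Pdia3 the ratio in tenocyte-like cells was -0.34 without cells scoring 8 to 12, so its opposite signs did not hold there. For Pdia6 the ratios were then 0.69 and -0.45 and for Rpn2 -0.39 and 0.43. Measured from the median gene, the signs stayed opposite, at 0.22 and -0.50 for Pdia3 and 0.13 and -0.46 for Pdia6. The tenocyte-like ratios of both were then short of the fold limit used to pick genes of opposite direction. Rpn2 stood at -0.53 and 0.38 by that measure.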

How the results depend on the processing

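Of the recomputed summaries 89 stayed within the limits set for them and 13 did not. Those limits were an interval around the reported median or rho and, for counts, 1.5-fold, and the same sign was not required. Of 851 recomputed values of named genes 664 lay within the counting interval of the reported value. Their sign was kept in 835, and 0 of those past the limit changed direction. The 10 genes higher in tenocyte-like cells of both genotypes were past the limit under every alternative run. Not every alternative could have changed that. Median-of-ratios scaling and reads outside collagen raised every class ratio, and the changed read minimums left each ratio as it was. The 5 lower ones numbered 3 with mean per-cell CPM, 2 with reads outside collagen and 0 with median-of-ratios scaling. With at least 1000 reads 3 were left, because Hyou1 and Ddit3 fell below that minimum. After thinning to 13000 reads 4 of the 5 were still past the limit, without Dnajb9. Dnajb9 was also short of it with mean per-cell CPM, and the part of depth in that call was not tested. Scaling moved the class median of the set most, from -0.13 in WT and 0.02 in Mkx-/- cells to 0.27 and 0.27 outside collagen and to 0.51 and 0.47 with median-of-ratios, so the sign of the WT median depended on the scale, and 19 genes were then higher under the latter. The median genotype ratio in tenocyte-like cells was -0.025, against 0.17, with median-of-ratios. With CPM of all reads the rho of the summed set with collagen load was 0.28 in WT cells and 0.30 in Mkx-/- cells, and 7 genes reached 0.3 in both. In an alternative chosen after the data were seen, 21 wells with markers of endothelial, immune, glial or red blood cells at 1000 CPM or more, or with the lowest share of the set, were left out. There were then 10 higher, 5 lower and 11 related genes. Among single genotype ratios over all cells, Fkbp9 moved from -0.40 to -0.02 and Sdf2l1 from -0.80 to -1.74 without cells scoring 8 to 12, and Sec11c from -0.45 to -0.07 after thinning. No paired analysis was possible because each genotype was 1 sample and the labels pair no cells.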
